A study of Mus musculus with 83 samples.

Results

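The small RNA bound to AGO2 was compared between mouse embryonic stem cells (ESCs) in which Dnmt1 had been deleted (Dnmt1 KO) and control ESCs. The libraries were chosen by title, as all those named for AGO2, which gave 4 Dnmt1 KO and 4 control libraries, or 8 of the 83 libraries of the series. Per the study's methods the cells carry floxed Dnmt1 alleles (Dnmt1 loxP/loxP), recombination by Cre was started with tamoxifen, and AGO2 was pulled down at day 9 after the deletion with an antibody to the protein. The control cells come from the same loxP line. The labels call all of these cells ESC of E14 background, whereas the methods give C57BL/6 for the loxP line. The line is 1 ESC line that was grown with or without feeder cells, and which of these held for the pull-downs is not given in the sources used here. Total small RNA of 3 Dnmt1 KO and 3 control libraries of day 9 from the same labels was used for comparison.

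The genotype tag of each AGO2 library contradicted its title, in 4 of 4 Dnmt1 KO and 4 of 4 control libraries, and so did the tags of the 2 libraries labelled "none" (1 per genotype), while 0 of the 6 day 9 libraries did. Groups followed the titles throughout, and every direction below is that of the titles. Were the tags right and the titles wrong, each AGO2 direction would turn. In the day 9 libraries, whose tags and titles match, the miRNAs of the Dlk1-Dio3 region had 9850 to 12712 reads per 1000000 reads of the library (RPM) in controls and 76923 to 83374 in Dnmt1 KO libraries, the same direction as the titles gave in AGO2. Of the features called in AGO2, 85 were also called at day 9 with the same sign and 0 with the opposite sign. The day 9 calls came from a fit that pooled the spread of AGO2 and day 9 libraries. Depth was unequal between the groups, with 11497718 to 25423038 reads in controls and 1152390 to 11520133 in Dnmt1 KO libraries, so that 10 RPM stood for 115 to 254 reads in the former and for 11.5 to 115 in the latter. Replicates 1-2 and replicates 3-4 formed separate pairs in both genotypes. The design text of the series speaks of 2 biological replicates with 2 samples each, so the 4 libraries may stand for 2 independent cultures, and p-values over 4 against 4 libraries may measure in part a technical spread. Values from a fit on the means of the library pairs, 2 against 2, are therefore given beside main ones of the AGO2 comparison. The contrasts with day 9 and between the library pairs have no such fit. Small RNA reads over the body of Dnmt1 (chr9:20711650-20757317, minus strand, NCBIM37) stayed below the level tested, at 1.29, 0.783, 1.60 and 1.77 RPM in controls 1 to 4 and 3.47, 4.50, 2.67 and 2.34 RPM in Dnmt1 KO libraries 1 to 4. Reads of this kind do not measure the Dnmt1 mRNA and do not check the deletion.

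AGO2 is the Argonaute protein that carries a miRNA or siRNA to its target transcripts, and it can cut a target that is fully complementary. A miRNA is cut from a hairpin by the Microprocessor and then by Dicer, one arm is kept in AGO2, and bases 2 to 8 of that arm, the seed, pair with the target. DNMT1 copies DNA methylation to the new strand after replication. Methylation of a control region between Dlk1 and Dio3 on chromosome 12 sets which parental copy expresses the long non-coding RNAs Meg3, Rian and Mirg, and the many miRNAs of this imprinted region are processed from those transcripts.

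The mature sequences of the miRNAs on which the results turn are given here, with the seed in capitals (RefSeq, GRCm38.p6). The first group holds abundant miRNAs of the Dlk1-Dio3 region and of an X-linked cluster that were higher in Dnmt1 KO libraries. The second holds the cluster of miR-183, miR-96 and miR-182, the third miRNAs that share the seed of miR-92a or miR-17 and lie in 3 related clusters, the fourth the arms with the seeds of the ESC cluster of miR-290 to miR-295, and the last a pair that shares a seed but moved in opposite directions. The deposited table counts a whole hairpin, so a printed arm names the seed and not the arm measured.
miR-127-3p: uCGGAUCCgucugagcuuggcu
miR-434-3p: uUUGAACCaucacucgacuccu
miR-411-5p: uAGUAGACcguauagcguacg
miR-871-3p: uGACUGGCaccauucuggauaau
miR-470-5p: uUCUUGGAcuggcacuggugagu
miR-182-5p: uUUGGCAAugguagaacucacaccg
miR-183-5p: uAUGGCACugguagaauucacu
miR-96-5p: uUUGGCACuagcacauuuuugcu
miR-92a-3p: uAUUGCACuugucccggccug
miR-363-3p: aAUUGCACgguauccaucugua
miR-20b-5p: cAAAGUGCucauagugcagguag
miR-17-5p: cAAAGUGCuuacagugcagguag
miR-93-5p: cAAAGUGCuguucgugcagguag
miR-295-3p: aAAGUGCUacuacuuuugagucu
miR-293-5p: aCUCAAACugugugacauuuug
miR-322-5p: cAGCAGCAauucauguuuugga
miR-15b-5p: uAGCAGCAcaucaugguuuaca

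Of the features that reached 10 RPM in at least 3 of the 8 libraries, 456 were tested, 261 of them miRNA hairpins. In the linear model (limma, Benjamini-Hochberg adjusted p under 0.05 over all 456), 166 features differed between Dnmt1 KO and control (36.4%). Of these 113 rose (24.8%) and 53 fell (11.6%) in Dnmt1 KO, and the RPM of the groups did not overlap in 171 (37.5%). Counts of each list below stand beside these shares over all features. Scaled to library totals alone, the split was 137 higher and 21 lower, and with median-ratio factors 103 and 69. On the means of library pairs 68 features were called (14.9%), 65 higher and 3 lower. All 40 tested miRNAs of the Dlk1-Dio3 region and all 11 of the X-linked cluster were higher. A feature under 10 RPM in every control passed the filter only through Dnmt1 KO libraries, so that a rise was close to fixed for it. Calls elsewhere went both ways, with 8 higher and 18 lower among 73 tested miRNAs of the remaining lists and 12 higher and 15 lower among 105 named miRNAs in no list. Fold changes below are differences on the log2(RPM + 1) scale after scaling, over whose 456 values the median was 0.11, and 0.22 over the miRNAs. Under library totals the former was 0.34 and with median-ratio factors -0.03.

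Hairpins of the Dlk1-Dio3 region were rare in AGO2 of control libraries, at 0.00296% to 0.0620% of miRNA reads, and made up 9.71% to 11.03% of them in Dnmt1 KO libraries. Their summed level was 614, 571, 29.3 and 31.2 RPM in controls 1 to 4 and 101867, 108237, 95044 and 100678 RPM in Dnmt1 KO 1 to 4. The 4 Dnmt1 KO libraries lay within a narrow range, while controls 3 and 4 were far below controls 1 and 2. All 40 tested members rose, also on the means of library pairs, out of 47 annotated and 43 with any read in these libraries. The median difference was 7.39, or 7.54 when the 6 members with 3 reads or fewer in each control were set at that floor. Some members, among them Mir673, Mir341, Mir370, Mir1193, Mir154 and Mir493, were under 10 RPM in every control. They passed the filter only through Dnmt1 KO libraries, and for them a rise was close to fixed in advance.

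Mir127, which lies antisense to the retrotransposon-derived gene Rtl1 (chr12:110831042-110831138, plus strand), was the most abundant of them. It had 173, 176, 3.203 and 3.50 RPM in the controls and 34744, 29496, 29654 and 26121 RPM in Dnmt1 KO libraries. Its log2 difference was 9.85 ± 1.25 (SE, n = 4 against 4, adjusted p = 0.000202, and 0.0231 on the pair means). Mir434, its neighbour (chr12:110832716-110832809), had 105, 87.1, 2.47 and 3.11 RPM in controls against 16203, 20645, 14904 and 19447 RPM. In both hairpins the highest control library stayed far below the lowest Dnmt1 KO library. Mir431, from the same stretch, rose by 8.48 on the log2 scale. The 5 tested miRNAs antisense to Rtl1, which are fully complementary to its transcript, summed to 311, 296, 7.62 and 8.93 RPM in controls and to 55737, 56038, 49787 and 51379 RPM in Dnmt1 KO libraries, with a median difference of 8.65 (range 7.16 to 9.85).

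The miR-379 to miR-410 cluster, the largest of the region, had 28 tested hairpins of 31, all of which rose, with a median of 6.94 (7.48 with floors, range 3.99 to 9.08). Mir541 (chr12:110980619-110980708) gave 76.1, 68.2, 4.804 and 6.097 RPM in controls and 13601, 15764, 12839 and 12823 RPM in Dnmt1 KO libraries (9.08 ± 0.82, adjusted p = 1.53e-05). Mir411 (chr12:110948385-110948480) gave 97.9, 86.1, 8.20 and 8.02 RPM against 11111, 11635, 12863 and 14975 RPM (8.52 ± 0.78, adjusted p = 1.75e-05). Both were high in all 4 Dnmt1 KO libraries with no overlap. At the low end, Mir154 was at or under 0.174 RPM in every control and at 34.3 to 57.8 RPM in Dnmt1 KO libraries. Mir493, next to Meg3, had 0.0919 RPM in control 1 and 0 in the other controls against 10.97 to 19.3 RPM. Such members rest on few reads, and their fold change depends on the pseudocount of 1 RPM.

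The hairpins nearer to Meg3 behaved alike, with 5 of 6 tested, all higher, and a median of 8.003 (range 3.82 to 9.26). Mir540 rose from 10.7, 8.18, 0.146 and 0.275 RPM to 2173, 2824, 2044 and 2706 RPM (9.26 ± 0.76, adjusted p = 7.58e-06), and Mir673 by 8.28. The 2 tested members within Rian, Mir341 and Mir370, had a median of 7.38. The gain extended to transcripts annotated by other names. Between the start of Dlk1 and the end of Dio3 (chr12:110691033-111519307) lay 88 features, of which 49 were tested and 47 rose, none fell and 47 did not overlap. Among them was AC121784.1, a clone-named hairpin model on the minus strand (chr12:110981368-110981447), at 35.3, 30.7, 1.80 and 2.48 RPM in controls and 6907, 7673, 3447 and 4111 RPM in Dnmt1 KO libraries. Whether reads were counted by strand is not given in the sources used here, so such models cannot be told from the miRNAs opposite to them. The 2 that were not called lie at the Dio3 end. Mir1247 had 66.1 to 86.9 RPM in controls and 65.6 to 209 RPM in Dnmt1 KO libraries, and Dio3os had 8.35 to 19.0 and 15.6 to 72.0 RPM (both named after their values were seen).

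**Figure D1:**
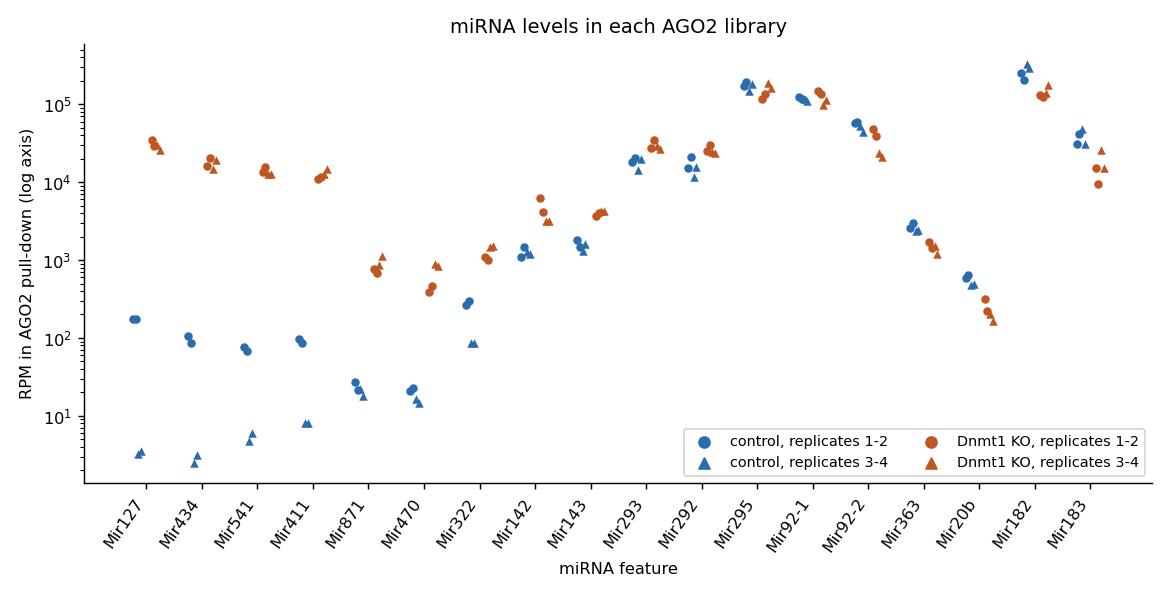
Level (RPM, log axis) of 18 miRNA hairpins in each of the 8 AGO2 libraries, blue for control and orange for Dnmt1 KO, with circles for replicates 1-2 and triangles for replicates 3-4. Mir127, Mir434, Mir541 and Mir411 show 4 Dnmt1 KO values close together at 11111 RPM or above and control values in 2 separate pairs, at 68.2 to 176 RPM and under 10 RPM.

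The size of the difference was unlike in the 2 library pairs, and so was the level in the controls. In replicates 1-2 the controls' summed Dlk1-Dio3 level was 0.564% of that of the Dnmt1 KO libraries, and in replicates 3-4 it was 0.0309%. For the 40 members the median difference was 6.18 within replicates 1-2 and 8.35 within replicates 3-4. A test of the difference between the 2 effects called 76 of 456 features (16.7%), 56 with the larger value in replicates 3-4, and 25 of the 76 were Dlk1-Dio3 miRNAs. The controls alone showed it too. Controls 3-4 differed from controls 1-2 in 106 features (23.2%), 82 of them lower in controls 3-4, with 25 Dlk1-Dio3 miRNAs again. Mir127 differed by 7.32 within replicates 1-2 and 12.39 within replicates 3-4, and Mir540 by 7.72 and 10.80. Both tests took the 2 libraries of a library pair as replicates. If each library pair stands for 1 culture, their p-values measure a technical spread only. What separates the pairs was not tested.

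**Figure D2:**
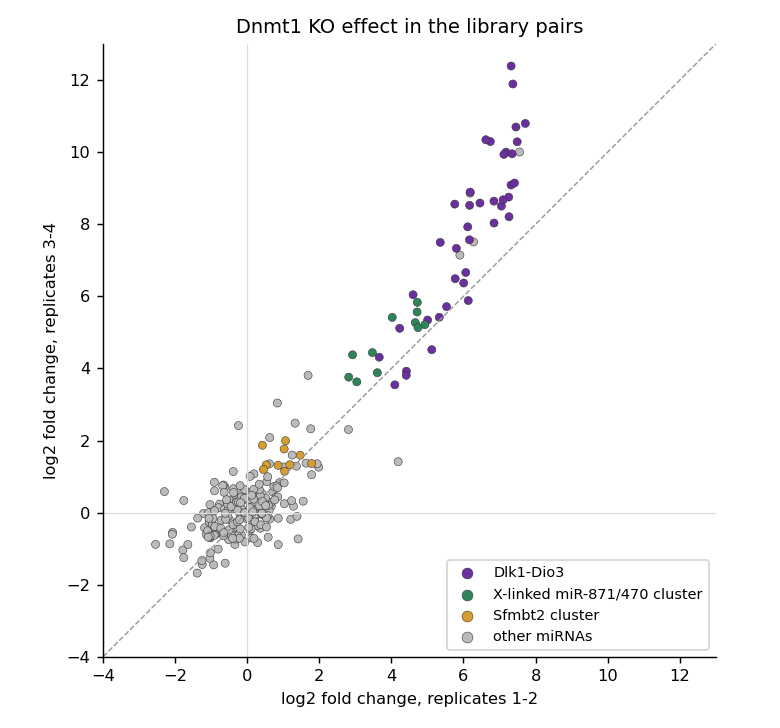
Log2 difference between Dnmt1 KO and control within replicates 3-4 (vertical axis) against that within replicates 1-2 (horizontal axis), 1 point per tested miRNA hairpin, both after scaling. Most Dlk1-Dio3 points lie above the diagonal, with medians of 8.35 and 6.18, and the X-linked points lie between them and the bulk of other miRNAs.

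The X-linked cluster between Slitrk2 and Fmr1, whose miRNAs are known for expression in testis, was the other locus in which every tested member rose. Its 20 annotated hairpins gave 11 that were tested, all higher in both fits, with a median of 4.72 (range 3.29 to 5.28). Summed over all 20 annotated hairpins, the level was 70.4, 64.2, 53.04 and 48.4 RPM in controls and 1959, 1904, 2783 and 3052 RPM in Dnmt1 KO libraries. Mir871 (chrX:64063603-64063679, minus strand) had 26.9, 21.3, 21.9 and 18.0 RPM in controls and 764, 679, 857 and 1128 RPM in Dnmt1 KO libraries (4.97 ± 0.24, adjusted p = 2.81e-07). Mir470 (chrX:64067126-64067200) had 20.9, 22.5, 16.4 and 14.8 RPM against 384, 460, 884 and 840 RPM (4.72 ± 0.32, adjusted p = 1.77e-06). In contrast to the Dlk1-Dio3 miRNAs, the control libraries were alike here, and it was Dnmt1 KO libraries 3 and 4 that were above 1 and 2 for Mir470, by a tested difference in effect of 1.39.

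The families hosted by the imprinted gene Sfmbt2 rose less. Of 79 annotated hairpins 10 were tested, 7 were higher in the fit over libraries and 0 on pair means, with a median of 1.1999. Of these 10, 9 share runs of at least 20 bases with another hairpin, so reads may be split among copies. Summed over all 79 annotated hairpins, the level was 912, 1107, 408 and 402 RPM in controls and 2278, 1810, 1495 and 1153 RPM in Dnmt1 KO libraries, higher in each Dnmt1 KO library than in any control. Mir467c had a difference of 1.08 (adjusted p = 0.0440) and lost its call with median-ratio factors and without control 3 or 4 or Dnmt1 KO 1 or 2. Mir467d had 0.93 (adjusted p = 0.0514, with 0.0188 under the replicate number as a block, 0.0333 under library totals and 0.317 on pair means).

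**Figure D3:**
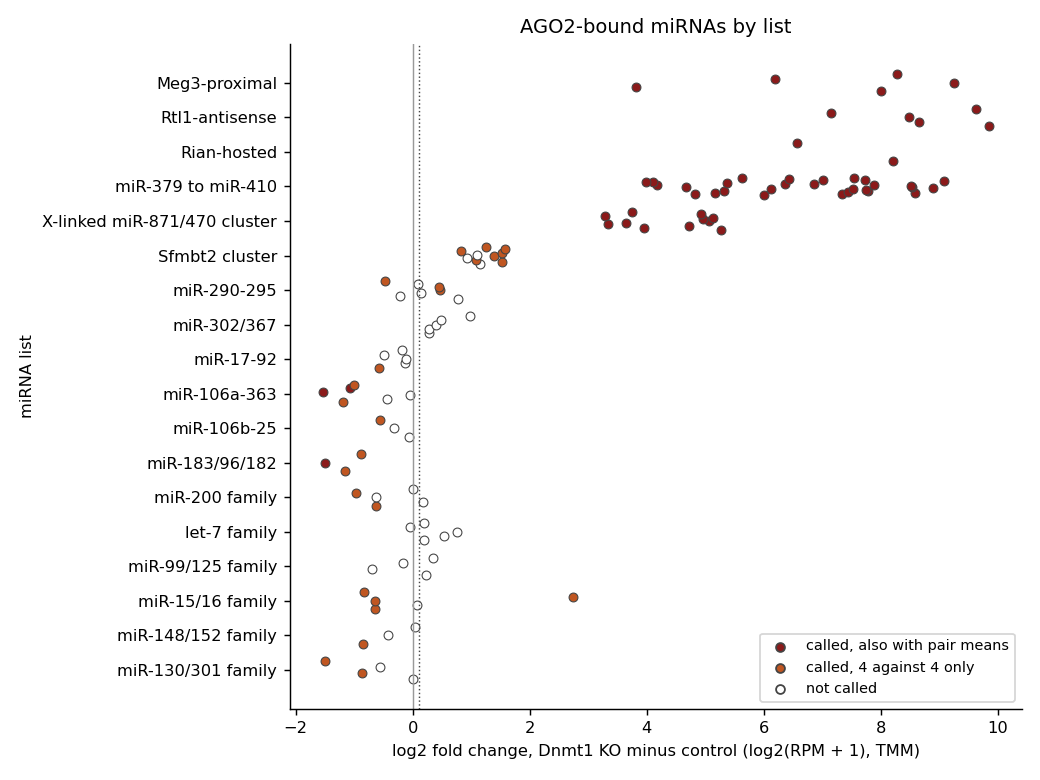
Log2 difference of each tested member of the lists, Dnmt1 KO minus control, after scaling. Dark red marks features called also on the means of library pairs, orange those called over the 4 against 4 libraries only and white those not called, and the dotted line is the median of all features, 0.11. The Dlk1-Dio3 and X-linked members lie wholly to the right, at medians of 7.39 and 4.72, and those of miR-183, miR-96 and miR-182 to the left.

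Among the miRNAs that lost share, the cluster of miR-183, miR-96 and miR-182 on chromosome 6 stood first by abundance. Mir182 (chr6:30115918-30115992, minus strand), the leading miRNA of AGO2 in every control library, had 254931, 204707, 329658 and 291769 RPM in controls and 131259, 123691, 141391 and 177275 RPM in Dnmt1 KO libraries. The difference was -1.15 ± 0.21 (adjusted p = 0.00260, and 0.0553 on pair means). Mir183 (chr6:30119668-30119737) had 30461, 41043, 47935 and 31356 RPM in controls against 15195, 9357, 26211 and 15337 RPM (-1.51 ± 0.31, adjusted p = 0.00505, and 0.0474 on pair means). In both hairpins every Dnmt1 KO library was below every control. Mir96 was also called, so that 3 of 3 members fell in the fit over libraries and 1 on pair means, with a median of -1.15.

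The clusters related to miR-17-92, which are linked to proliferation, did not move as one. In the X-linked copy, miR-106a-363, 4 of 6 fell (2 on pair means, median -1.04). Mir363 (chrX:50094870-50094944, minus strand) had 2565, 2976, 2343 and 2414 RPM in controls and 1693, 1426, 1505 and 1211 RPM in Dnmt1 KO libraries (-1.07 ± 0.14, adjusted p = 0.000279, and 0.0479 on pair means). Mir20b (chrX:50095290-50095369) had 580, 633, 473 and 486 RPM against 315, 221, 205 and 165 RPM (-1.53 ± 0.21, adjusted p = 0.000401, and 0.0474 on pair means). Mir92-2, of the same cluster, had -1.01 (adjusted p = 0.0134, and 0.160 on pair means) and lost its call under library totals. In miR-17-92 on chromosome 14, 1 of 5 tested members was called, Mir17 (-0.58, adjusted p = 0.0181, and 0.246 on pair means, lost under library totals and without control 1 or 3), and the median of -0.18 turned to 0.06 under library totals. Mir92-1, with the same mature sequence as Mir92-2, had 124343, 117847, 115537 and 111616 RPM in controls and 148025, 136924, 97906 and 113303 RPM in Dnmt1 KO libraries, and the groups overlapped (-0.18 ± 0.13, adjusted p = 0.330). How reads of this shared sequence were divided between both hairpins is not given in the sources used here. In miR-106b-25, inside the replication gene Mcm7, 1 of 3 was called, Mir93 (-0.56 ± 0.13, adjusted p = 0.0104, and 0.206 on pair means), which also lost its call under library totals.

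The ESC cluster of miR-290 to miR-295, whose miRNAs promote the ESC cell cycle, did not move in 1 direction. Of 7 members 2 rose, 1 fell and 4 were not called, with a median of 0.14, which turned to -0.0032 with median-ratio factors, and none called on pair means. Over all tested features 24.8% rose and 11.6% fell, so these counts do not set the cluster apart. Mir293 had 17909, 20227, 14493 and 20030 RPM in controls and 27368, 35060, 28797 and 26720 RPM in Dnmt1 KO libraries (0.46 ± 0.11, adjusted p = 0.0136). Mir292 had 15234, 20966, 11693 and 15869 RPM against 24933, 29762, 24705 and 23669 RPM (0.47 ± 0.13, adjusted p = 0.0216). Both calls were lost with median-ratio factors, that of Mir293 also without Dnmt1 KO replicate 2, 3 or 4 and that of Mir292 without any single library but control 2. Mir295 had 170483, 195485, 149604 and 180357 RPM in controls and 117744, 135949, 186787 and 163638 RPM in Dnmt1 KO libraries, which overlapped. Its difference of -0.47 (adjusted p = 0.0344) was lost under library totals and without any single library but Dnmt1 KO 3 or 4. With that cluster, the 12 ESC markers summed to 194871 to 270691 RPM in controls and 194406 to 283659 RPM in Dnmt1 KO libraries. The related cluster of miR-302 and miR-367 was far apart between the library pairs, and 0 of its 5 members were called by genotype, with a median difference of 0.34 within replicates 1-2 and 0.64 within replicates 3-4. Mir302a had 395 and 536 RPM in controls 1 and 2 against 47.1 and 54.7 in controls 3 and 4, and the Dnmt1 KO libraries had 509, 492, 112 and 85.5 RPM. Summed, the 5 hairpins had 953, 1242, 108 and 145 RPM in controls and 1251, 1391, 281 and 229 RPM in Dnmt1 KO libraries.

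Of other families, the epithelial miR-200 family had 2 of 5 members lower and 0 on pair means (median -0.62), among them Mir141 (-0.63, adjusted p = 0.0472, and 0.259 on pair means, lost under library totals and without control 1, 2 or 3 or Dnmt1 KO 2). The family of miR-130 and miR-301 had 2 of 4 lower and 0 on pair means (median -0.71), with Mir130b at 4111 to 4636 RPM in controls and 2370 to 3284 RPM in Dnmt1 KO libraries (-0.86, adjusted p = 0.00256) and Mir301b at -1.51. The family of miR-148 and miR-152, which has Dnmt1 among its known targets, had 1 of 3 lower, Mir148a (-0.85, adjusted p = 0.0207, and 0.200 on pair means, lost on leaving out control 3 or 4 or Dnmt1 KO 1 or 2). None of 2 tested members of the miR-29 family, known to target Dnmt3a and Dnmt3b, was called. None of 5 let-7, 4 miR-99 and miR-125, and 3 p53-linked miR-34 members was called either, with medians of 0.19, 0.03 and 0.56, of which the second turned to -0.11 with median-ratio factors. Under library totals Mir29c, Mir34a and Mir34c were called higher (limma, adjusted p = 0.0233, 0.0158 and 0.0283). Their RPM did not overlap between the groups, so these results depend on the scaling. Mir21 had 12945, 11340, 4857 and 5618 RPM in controls and 26074, 25485, 10434 and 12542 RPM in Dnmt1 KO libraries, higher within each library pair (0.86, adjusted p = 0.112, with 0.00191 under the replicate block and 0.399 on pair means).

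The family of miR-15 and miR-16, which restrains the cell cycle, split. Mir322 had 268, 298, 86.7 and 86.5 RPM in controls and 1093, 998, 1473 and 1534 RPM in Dnmt1 KO libraries, with no overlap (2.75 ± 0.42, adjusted p = 0.000729, and 0.0507 on pair means). Mir15b, which has the same seed, had 660, 752, 708 and 648 RPM against 477, 391, 729 and 558 RPM (-0.64, adjusted p = 0.0487, lost under library totals and without any of 6 single libraries, all but Dnmt1 KO 3 and 4). In all 1 of 5 tested members rose and 3 fell, and none was called on pair means. Other miRNAs that fell without overlap were Mir186 (-0.53, lost under library totals), Mir582 (-1.29), Mir674 (-1.27) and Mir338 (-1.71, at 13.7 to 15.7 RPM in controls and 1.29 to 10.1 RPM in Dnmt1 KO libraries, lost without control 3 or 4 or Dnmt1 KO 1). None of the 4 was called on pair means. Mir181a-2 had 22.1, 16.4, 16.6 and 16.6 RPM in controls and 422, 409, 54.8 and 57.6 RPM in Dnmt1 KO libraries, so that all 4 were above the controls and replicates 1 and 2 far above replicates 3 and 4 (2.80 ± 0.69, adjusted p = 0.0135, and 0.185 on pair means).

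Hairpins made without the Microprocessor (mirtrons and the like) had 1 of 5 tested members higher, where 24.8% of all features were, and a median of 0.23. Mir484 gave 0.56 (adjusted p = 0.0892, with 0.0324 under the replicate block, 0.0368 under library totals and 0.390 on pair means) and Mir320 gave 0.02 (adjusted p = 0.968). Mir451, which AGO2 itself cuts, was at 3.47 RPM or less in all 8 libraries and not tested. Reads over the genes of the pathway were few. Dicer1 and Eif2c2, the gene of AGO2, had at most 3.86 and 2.57 RPM and were not tested, and Dgcr8, a Microprocessor subunit, was not called.

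Markers of other cell types moved in part with genotype. Mir143, a mesenchymal miRNA abundant in fibroblasts such as feeder cells, had 1811, 1492, 1307 and 1607 RPM in controls and 3651, 3974, 4266 and 4325 RPM in Dnmt1 KO libraries (1.14 ± 0.15, adjusted p = 0.000218, and 0.0390 on pair means). Of its 7-member list 2 were tested and 1 rose, and the list summed to 1338 to 1834 RPM in controls and 3702 to 4368 RPM in Dnmt1 KO libraries. The other tested member, Mir145, was called higher under library totals only in part of the settings (limma, adjusted p = 0.0132, and 0.0661 in the main fit). The blood cell miRNAs had 2 of 5 tested and both higher, 1 of them on pair means. Mir142 had 1103, 1473, 1273 and 1209 RPM in controls and 6174, 4085, 3151 and 3185 RPM in Dnmt1 KO libraries (1.42 ± 0.23, adjusted p = 0.000988, and 0.0473 on pair means), and Mir150 had 328 to 1142 RPM and 1025 to 2859 RPM (1.42, adjusted p = 0.0190, and 0.131 on pair means, lost without control 3 or Dnmt1 KO 2). The blood list summed to 1617 to 2620 RPM in controls and 4214 to 8315 RPM in Dnmt1 KO libraries. Of the endoderm and liver list, Mir375 rose (1.502, adjusted p = 0.0217, and 0.233 on pair means, lost without control 3 or 4 or Dnmt1 KO 1 or 2) and Mir192 did not pass the test. Of the neural list 8 of 9 had reads, 3 were tested and none was called, with sums of 130 to 164 RPM in controls and 145 to 376 RPM in Dnmt1 KO libraries. Of 8 muscle hairpins 5 were at 0 in all libraries and none reached the level tested, and their sum was 4.80 to 20.2 RPM in controls and 7.08 to 12.5 RPM in Dnmt1 KO libraries. The part of such cells in the results was not tested, and in libraries of bulk cells more cells of a type and more RNA per cell cannot be told apart.

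Because RPM sum to a fixed total, the pool was also described by its makeup. The 10 leading hairpins held 79.0 ± 1.73% of miRNA reads in controls and 67.2 ± 0.592% in Dnmt1 KO libraries (SD, n = 4 each, exact permutation test, two-sided, p = 0.0286, the smallest that 4 against 4 allows). The number of hairpins that covers 90% of reads was 20 to 25 in controls and 37 to 39 in Dnmt1 KO libraries. The effective number of hairpins (the exponential of the entropy of their shares) rose from 16.7 ± 2.03 to 29.3 ± 1.85. With the Dlk1-Dio3 hairpins left out it still went from 16.7 ± 1.98 to 23.0 ± 1.58 (exact permutation p = 0.0286). Mir182 led in all 4 controls, at 20.7% to 33.3% of miRNA reads, while Mir92-1 led in Dnmt1 KO libraries 1 and 2, Mir295 in 3 and Mir182 in 4.

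Grouped by seed, with each hairpin counted under the seeds of both arms, 40 seeds reached 1% of miRNA reads in some library, and 16 did not overlap between groups (40.0%). None passed an adjusted p under 0.05 in the exact permutation test, whose smallest adjusted value was 0.0714. The 16 seeds without overlap already had the smallest unadjusted value that this test allows with so few libraries. The lack of calls therefore cannot decide whether the shares of these seeds differ. The seed of miR-92a, carried by 7 hairpins, had 19.3 ± 1.25% in controls and 18.2 ± 3.99% in Dnmt1 KO libraries (exact permutation p = 0.657), and 19.3% and 20.4% with the Dlk1-Dio3 hairpins left out. The ESC seed AAGUGCU of miR-295-3p and miR-302d-3p had 19.7% and 17.8% (exact permutation p = 0.371). The seed CUCAAAC of miR-293-5p held 3.49% and 5.72%, with no overlap. The seed of miR-182-5p fell in share from 27.3 ± 5.40% to 14.6 ± 2.42%, also with no overlap, and that of miR-127-3p went from 0.00897% to 3.06%.

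**Figure D4:**
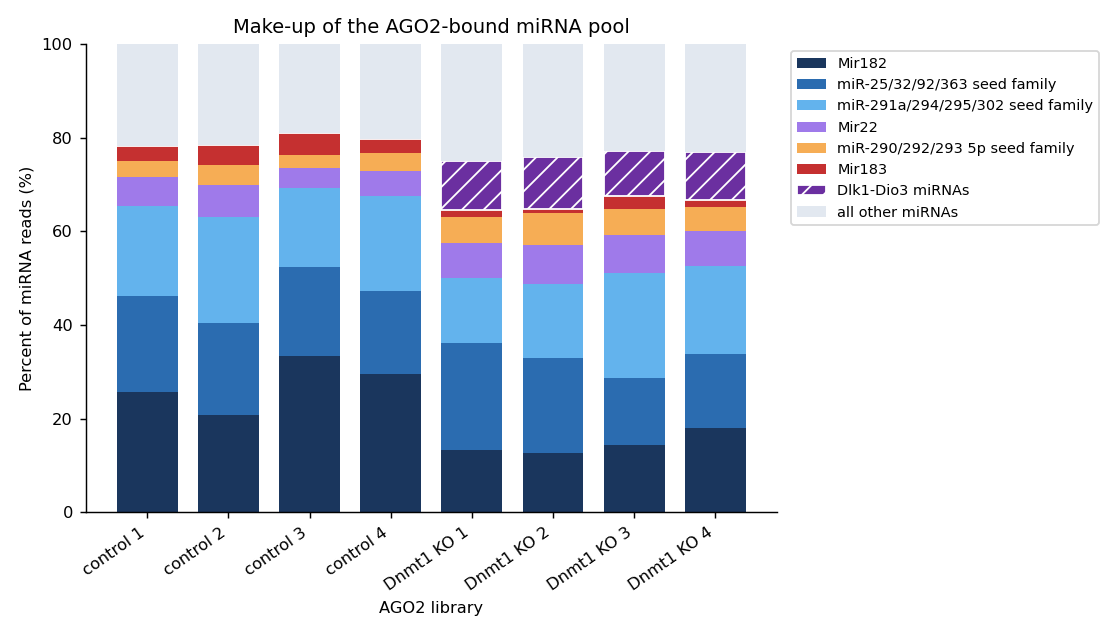
Percent of miRNA reads held by the leading hairpins and seed families in each AGO2 library, as stacked bars that sum to 100. The Mir182 segment takes 20.7% to 33.3% in controls and 12.6% to 18.1% in Dnmt1 KO libraries, and the Dlk1-Dio3 segment is visible in Dnmt1 KO libraries only, at 9.71% to 11.03%.

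As a check of the pull-down, miRNA features held 98.9% to 99.0% of reads in controls and 97.9% to 98.1% in Dnmt1 KO libraries, against means of 57.6% and 58.5% in day 9 total small RNA. The difference of -0.899 percentage points had p = 0.0286 in the exact permutation test (adjusted 0.0429 over 9 classes). The libraries labelled none had 57155 reads (control) and 9830 reads (Dnmt1 KO), of which 84.1% (95% Wilson interval 83.8 to 84.4) and 45.9% (44.9 to 46.9) were miRNA, intervals that cover counting error only. Classes overlap, since a read in a hairpin counts again in its host transcript. Long intergenic RNAs, among them the hosts of the Dlk1-Dio3 hairpins, went from 0.226% to 0.360% of reads in controls to 2.38% to 3.45% in Dnmt1 KO libraries. Protein-coding genes with no miRNA inside went from 0.645% to 0.837% to between 1.21% and 1.48%.

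Of the 75 tested features that are no miRNA and overlap none, 14 rose and 2 fell, where 24.8% rose and 11.6% fell over all tested features. Mlkl, the executor of necroptosis (chr8:113835697-113862077, minus strand), had 0.505, 0.696, 0 and 0.0787 RPM in controls and 46.9, 113, 54.8 and 84.5 RPM in Dnmt1 KO libraries (5.66 ± 0.32, adjusted p = 5.04e-07, and 0.00178 on pair means). In day 9 total small RNA it was at means of 0.202 and 0.161 RPM, and the AGO2 effect exceeded the day 9 effect by 5.90 (adjusted p = 1.25e-06). Where in the gene these reads lie cannot be told from a table of whole genes. The mitochondrial rRNAs mt-Rnr1 and mt-Rnr2 rose by 1.39 and 1.42 from means of 5.15 and 5.81 RPM (0.0602 each on pair means). Mlkl and both rRNAs were under 10 RPM in every control. They passed the filter only through Dnmt1 KO libraries, so that a rise was close to fixed in advance. Celf2, an RNA-binding protein gene, fell by 0.63 (adjusted p = 0.0228) and Prrc2b by 0.61 (adjusted p = 0.0345, and 0.0582 with the replicate block), and both were lost under library totals and without control 1, 3 or 4, Prrc2b also without control 2 or Dnmt1 KO 2.

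The AGO2 differences were set beside those of total small RNA at day 9. Of the 166 features called in AGO2, 154 had the same sign in total small RNA, 85 were called there with the same sign and 0 with the opposite sign. Across the 261 miRNAs the 2 effects had Pearson r 0.908 and Spearman rho 0.819, and across the 221 outside the Dlk1-Dio3 region 0.861 and 0.712. The points are hairpins that share libraries and are not independent, and no test is given. A test of the difference between the 2 effects called 119 of 1564 features (7.61%), 86 with the higher value in AGO2. It took the AGO2 libraries of a genotype as independent and was not run on the means of library pairs. Its p-values may therefore measure in part a technical spread. Of the 119 called in either direction 53 are miRNAs, and 39 of these are Dlk1-Dio3 miRNAs. The count depends on the settings, with 73 calls at a pseudocount of 0.25 RPM, 380 at 5 RPM and 31 when 10 reads were required in every library.

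For the Dlk1-Dio3 miRNAs the larger difference in AGO2 lay mostly in the controls. Day 9 total control libraries had 12712, 9850 and 10130 RPM of these hairpins, where AGO2 controls had 29.3 to 614 RPM. The Dnmt1 KO libraries were closer, at 82296, 76923 and 83374 RPM in total and 95044 to 108237 RPM in AGO2. RPM are taken over all reads, of which miRNAs held a mean of 58.5% in total and 97.9% to 98.1% in AGO2 Dnmt1 KO libraries. As a share of miRNA reads the order of the Dnmt1 KO libraries turned, at 13.4% to 14.0% in total and 9.71% to 11.03% in AGO2. In controls this share was far lower in AGO2 than in total, as the RPM were. The median difference between genotypes was 2.71 in total and 7.39 in AGO2, each in its own fit. Within the fit over both sets of libraries, the median of the AGO2 effect minus the total effect was 4.29. The libraries labelled none, with few reads, had 1015 RPM (control) and 44659 RPM (Dnmt1 KO). Mir127 had means of 5023 and 37137 RPM in total small RNA, and its AGO2 effect exceeded the difference of 2.72 there by 6.82. That difference was not called (limma, adjusted p = 0.137), in a fit whose spread was pooled with the AGO2 libraries. The day 9 libraries themselves did not overlap, at 5920, 4532 and 4615 RPM in controls and 38874, 34320 and 38219 RPM in Dnmt1 KO. Among the miRNAs with the smallest p for a higher effect in AGO2 were Mir1193 (3.58), Mir154 (3.22) and Mir493 (2.43). In the opposite direction stood Mir27b, at -0.79 (adjusted p = 0.0122, lost under library totals and without day 9 control 2), and AL808027.2, at -2.18 (adjusted p = 0.0471, lost without any single library but AGO2 Dnmt1 KO 3 or 4).

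Outside that region the 2 measurements were nearer to each other. The X-linked cluster had medians of 2.75 in total and 4.72 in AGO2, each in its own fit. Within the fit over both sets of libraries, its median AGO2 effect minus total effect was 1.53, and 7 of its 11 members passed the test of this difference. Mir20b had -1.80 in total and -1.53 in AGO2, Mir363 -1.40 and -1.07, and Mir182 -0.72 and -1.15, again in separate fits. Their AGO2 effect minus total effect within 1 fit was -0.12, -0.06 and -0.82, and no member of their 2 clusters passed that test. The cluster of miR-302 and miR-367 had a median of -1.64 in total and 0.39 in AGO2. Its median difference within 1 fit was 1.70, with 0 of 5 members passing the test.

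**Figure D5:**
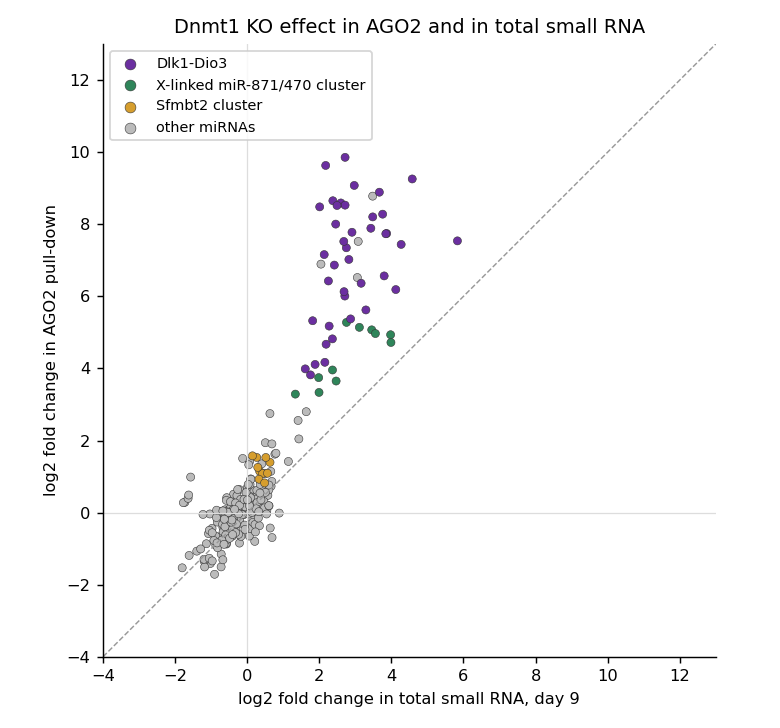
Log2 difference between Dnmt1 KO and control in AGO2-bound RNA (vertical axis) against that in total small RNA of day 9 (horizontal axis), 1 point per miRNA hairpin, with the dashed line at equality. Dlk1-Dio3 points lie above the line, at medians of 7.39 and 2.71, and most other points lie near it.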

How the data were processed

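Small RNA libraries (Illumina small RNA kit) were made from AGO2 pull-downs and from total RNA. Per the labels and methods the authors trimmed reads with Trim Galore 0.3.5, kept those of 20 to 24 nt, aligned them with Bowtie2 2.2.9 to NCBIM37 and deposited RPKM per annotated feature from SeqMonk, with no statement on strand or multiply mapping reads. RPKM times the feature's span gave RPM, whose low values were all whole multiples of 1 read (tolerance 0.05 of a read), so library totals were recovered. Of 32101 features, 1573 are miRNA hairpins, 852 of which lie inside another feature, and 418 matched a RefSeq mature sequence. A read in overlapping features counts in each.

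Features with at least 10 RPM in 3 or more of the 8 libraries were scaled by trimmed mean of M values (30% and 5% trimmed), taken as log2(RPM + 1) and tested with limma 3.58.1 in R 4.3.3 (trend, two-sided, Benjamini-Hochberg over all features), a test fitted to normalized values and checked on simulated data. The simulated libraries were independent and had no library pairs, so that check does not cover p-values where paired libraries are correlated. The comparison with day 9 and that of the library pairs used the same model with a contrast of contrasts, the former over features with 10 RPM in 3 of 14 libraries. Shares were compared by exact permutation tests. Library pair refers to replicates 1-2 and 3-4. Deviations from the group means correlated between same-numbered libraries of both genotypes at 0.34, 0.27, 0.19 and 0.39, and between other-numbered libraries of the same library pair at 0.36, 0.23, 0.39 and 0.22, so the values mark the library pairs and not the single numbers. The fit with the replicate number as a block is given where it changes a call. No 2 libraries agreed within sampling noise (chi-square per degree of freedom 75.2 to 3610).

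Features named were, by rule, abundant or strongly changed called miRNAs without overlap (the 8 and the 4 of each direction), the 3 non-miRNA features of each direction with the smallest p, the 2 most abundant tested members of each list, the 3 miRNAs of each direction and smallest p for the contrasts, and Dnmt1, Mir93, Mir451, Dicer1 and Eif2c2. Mir96, Mir1247 and Dio3os were added after their values were seen. Members, lists and tests were chosen with earlier results of these data known. Alternatives covered scaling, pseudocount, filter, depth, pairing and each library left out.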

Additional observations from a re-analysis of the deposited data

Results flagged for a closer look

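In 9 of 162 groups of 4 libraries 1 library stood apart by Dixon's test, where chance gives about 1 in 20. Dnmt1 KO 2 was high for mt-Rnr2 (26.4 RPM, others 17.7 to 19.1) and Mir341 (1258 RPM, others 685 to 750). Dnmt1 KO 3 was high for Mir145 (57.2 RPM, others 38.6 to 40.9) and Dgcr8 (94.9 RPM, others 33.5 to 39.1), and low in its miRNA share (97.9%, others 98.1%). Control 2 was high for Mir128-1 (124 RPM, others 104 to 105) and low for Mir192 (1441 RPM, others 1725 to 1751). Control 1 was high for Mir181a-2 (22.1 RPM, others 16.4 to 16.6) and Mir493 (0.0919 RPM, others 0).

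The genotype effect differed between the library pairs for 19 named features (limma, contrast of contrasts, adjusted p under 0.05, with the 2 libraries of a pair taken as replicates). It was larger in replicates 3-4, on the log2 scale, for Mir127 (5.07), Mir434 (4.52), Mir431 (3.72), Mir411 (3.55), Mir541 (3.24), Mir540 (3.08), AC121784.1 (2.45), Mir341 (1.77), Mir673 (1.73) and Mir370 (1.53) of the Dlk1-Dio3 region. Elsewhere the difference was 2.12 for Mir322, 1.66 for Mir338, 1.39 for Mir470, 1.28 for Mir301b, 1.19 for Mir200b and 0.93 for Mirlet7d. It was -2.78 for Mir181a-2, -1.75 for CT025619.1 and -1.40 for Mir128-1.

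The AGO2 effect differed from that of day 9 total small RNA for 17 named features, with the AGO2 libraries taken as independent. In the Dlk1-Dio3 region it was larger in AGO2 by 7.14 for Mir434, 6.82 for Mir127, 6.39 for Mir431, 5.77 for Mir541, 5.67 for Mir411, 5.01 for AC121784.1, 4.68 for Mir341, 4.61 for Mir540, 4.55 for Mir673, 3.58 for Mir1193, 3.22 for Mir154, 2.85 for Mir370 and 2.43 for Mir493. Mlkl stood at 5.90. It was lower in AGO2 for AL808027.2 (-2.18), Celf2 (-1.06) and Mir27b (-0.79).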

How the results depend on the processing

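Of the 166 calls over libraries, 68 were made on the means of library pairs and 91 with the library pair as a random effect (correlation 0.665), and of the 118 miRNA calls 61 and 74. Requiring 10 reads in every library left 71 miRNA calls, 40 higher and 31 lower in place of 84 and 34. Hairpins scarce in any library then drop out. With the replicate number as a block, a pairing that the data show for the library pairs only, there were 181 calls. The block changed a call for 5 named features: Prrc2b and Mir27b (adjusted p = 0.0547) lost theirs and Mir467d, Mir21 and Mir484 gained one, none of which held on pair means. It changed no other named call. Leaving out each library in turn gave 118 calls (without control 3) to 186 (without Dnmt1 KO 4), and 88 to 124 miRNA calls. The 119 differences from day 9 became 73 with a pseudocount of 0.25 RPM, 380 with 5 RPM and 31 with 10 reads in every library, and 87 to 163 with each library left out. The cause was not tested. The loss of miRNA share, -0.899 points, had p = 0.333 on pair means in the exact permutation test. So few means allow no smaller value in that test, so it cannot decide whether the loss held on pair means. The loss was -0.932 to -0.831 points on leaving out each library, where p of the exact permutation test cannot be below 0.0571. Outside the Dlk1-Dio3 region 9 seeds in place of 16 did not overlap, and 16 to 20 with a library left out. Scaling to library totals moved the median of all features by 0.24 and median-ratio factors by -0.14, and the medians of miR-17-92 under the former and of the miR-290 to miR-295, miR-99 and miR-125, and miR-29 lists under the latter turned sign. Of 47 named calls, 20 held in every alternative that tested them. Some of the 20, such as Mir540 and Mlkl, dropped out of part of the alternatives and were not tested there. On pair means 21 of the 47 held, and none turned direction under another scaling. Thinning all libraries to a common depth left 153 calls. The Dnmt1 KO libraries are shallower, so that at 10 RPM library 1 holds 11.5 reads, and loss of scarce hairpins there was not detectable below that level.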

Other observations

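A few protein-coding genes with no annotated miRNA inside carried AGO2-bound reads mainly in Dnmt1 KO libraries (named after their values were seen). Acsl6, a fatty acid CoA ligase gene, had 47.1, 126, 37.2 and 53.7 RPM in controls 1 to 4 and 873, 1267, 438 and 141 RPM in Dnmt1 KO 1 to 4 (log2 difference 2.86 ± 0.63, adjusted p = 0.0074 with limma, and 0.0955 on pair means). Pafah2, which encodes a phospholipase, had 1.61, 4.35, 1.21 and 2.05 RPM in controls and 19.96, 43.8, 19.3 and 6.42 RPM in Dnmt1 KO libraries (2.45 ± 0.49, adjusted p = 0.0041, and 0.0474 on pair means). Both were lowest in Dnmt1 KO library 4, the deepest of its group, and highest in Dnmt1 KO 2. Chd9, a chromatin remodeller gene, had 3.03 to 6.09 RPM in controls and 11.11 to 29.5 RPM in Dnmt1 KO libraries (1.51 ± 0.31, adjusted p = 0.0050, and 0.0767 on pair means). Pafah2 and Chd9 were under 10 RPM in every control and passed the filter only through Dnmt1 KO libraries. A rise was thus close to fixed for both, and their p-values are no separate support for it.

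Several miRNAs outside the lists moved without overlap of the groups (also named after their values were seen). Mir215 had 3.89 to 5.65 RPM in controls and 21.7 to 30.9 RPM in Dnmt1 KO libraries, with an adjusted p of 0.0212 on pair means. With every control under 10 RPM, Mir215 too passed the filter only through Dnmt1 KO libraries. Mir351, beside Mir322 on the X chromosome, had 158 to 584 RPM in controls and 824 to 1008 RPM in Dnmt1 KO libraries, while Mir450b from the same stretch had 139 to 237 RPM and 99.9 to 138 RPM. Mir335, inside the imprinted gene Mest, had 1543 to 2257 RPM in controls and 2355 to 4432 RPM in Dnmt1 KO libraries (0.62 ± 0.20, adjusted p = 0.0420, and 0.297 on pair means).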
